A study of Arabidopsis thaliana and Medicago truncatula and Solanum lycopersicum with 15 samples.

Results

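The open regions that flank rice centromeres were taken as the regions whose midpoint lay within 3 Mb of the centromere position of each of the 12 rice chromosomes. The positions were given with the rule, from 2.8 Mb on chromosome 9 to 19.4 Mb on chromosome 3, and do not come from the region lists. They are rounded to 0.1 Mb, so each may be off by up to 50 kb from rounding alone. Their genome build is not stated and was taken to be that of the lists, on which every window and distance below depends. By this rule 2951 of the 26293 regions on the 12 chromosomes in replicate 1 were members, and 6271 of 53871 in replicate 2. The 9222 members stand among 80164 rice regions on these chromosomes and 753507 regions in the 14 lists of the series.

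Open chromatin was profiled by ATAC-seq, an assay in which the Tn5 transposase inserts sequencing adapters into accessible DNA. The rice group consisted of 2 biological replicates of Oryza sativa, strain Nipponbare, with nuclei from root tips of 1 cm. Both came from plants grown on upright agar plates and carrying the INTACT transgenes UBQ10p:NTF/ACT2:BirA, which tag nuclei with biotin under promoters described as constitutive, so that nuclei of the whole root tip are captured on streptavidin. No untagged or crude rice nuclei and no rice genomic DNA control were analysed here. The other groups of the series, from Arabidopsis, Medicago and tomato, were not compared.

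A plant centromere is the site where the kinetochore assembles, on nucleosomes that carry the histone variant CENH3. In rice its core consists of the CentO satellite and of centromere-specific retrotransposons. It is flanked by pericentromeric heterochromatin, which is rich in transposable elements, densely methylated and poor in genes, while genes are more frequent towards the chromosome ends. Open regions in plants lie mostly near genes. Some rice centromeres are known to hold transcribed genes among their repeats.

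Each list gives a start and an end for every region, with no height, score or read count, and sequencing depth is unknown. The lists were not on one scale. Replicate 2 held 2.05 regions for each region of replicate 1 over the 12 chromosomes. The commonest region width was 305 bp in replicate 1 and 144 bp in replicate 2. Windows were therefore compared with the rest of the same chromosomes within each list, and the 2 within-list differences were then compared with each other. The lists come from whole root tips, so a region open in few cells and a region weakly open in all cells cannot be told apart.

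Open regions were sparser near the centromeres in both replicates. In replicate 1 the windows held 41.1 regions per Mb and the rest of the chromosomes 77.5. In replicate 2 they held 87.3 and 158 regions per Mb. Density in the windows was thus 53.0% and 55.3% of that in the rest, a mean log2 ratio of −0.89 ± 0.042 (SD, n = 2 lists). These values pool the 12 chromosomes. The median over single chromosomes, each against its own rest, was 56.9% in replicate 1 and 58.6% in replicate 2. The 2 lists differed from each other far less than windows differed from the rest, but an exact two-sided sign-flip permutation test over 2 lists cannot give a p under 0.5, and gave 0.5. The windows made up 19.2% of the sequence. Members accounted for 11.2% of the regions in replicate 1 and for 11.6% in replicate 2.

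The covered share of sequence behaved like the number of regions. Regions covered 2.19% of the windows and 4.24% of the rest in replicate 1, and 2.99% and 5.61% in replicate 2. The mean log2 ratio was −0.93 ± 0.031 (SD, n = 2 lists; exact permutation p = 0.5, the smallest possible). Density and covered share were each lower in the window than in the rest on 12 of 12 chromosomes in both lists.

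The thinning did not stop at the window border. Within 0.5 Mb of the centromere position the lists held 31.6 and 62.9 regions per Mb. Between 0.5 and 1 Mb they held 40.8 and 85.8, and between 2 and 3 Mb 43.9 and 95.9. In bins of 0.5 Mb, density between 0.5 and 4 Mb ran from 40.6 to 44.5 regions per Mb in replicate 1 and from 85.8 to 98.6 in replicate 2. It was 52.0 and 116 from 4 to 6 Mb, 68.8 and 143 from 6 to 10 Mb, and 97.1 and 191 beyond 10 Mb. All these lengths include any sequence in which no read could be placed, and its amount near the centromeres is unknown.

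**Figure D1:**
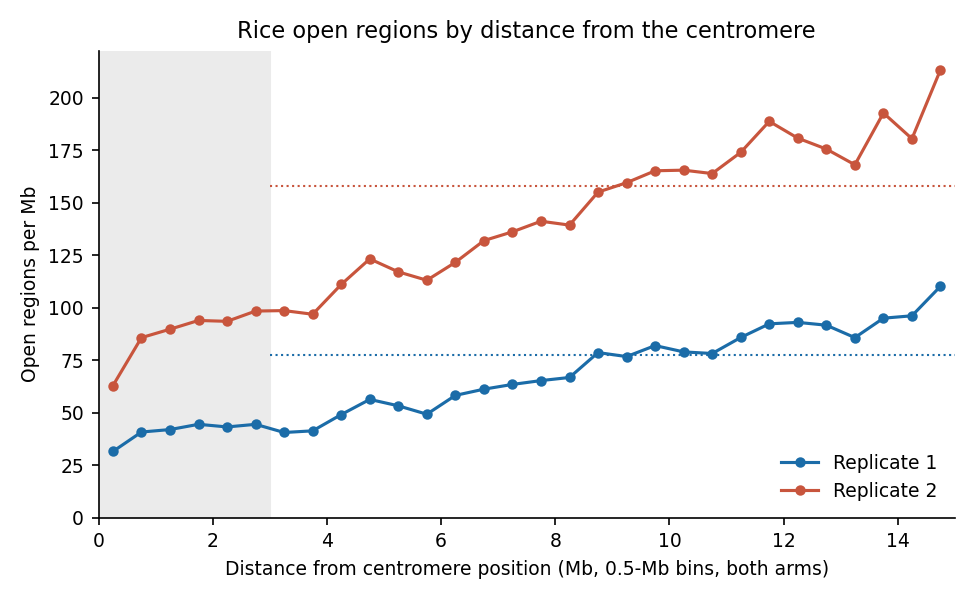
Open regions per Mb against distance from the centromere position in bins of 0.5 Mb, both arms and all chromosomes that reach the bin combined, for replicate 1 (blue) and replicate 2 (red). Grey marks the windows and dotted lines the density of each list over the rest of the chromosomes, 77.5 and 158 regions per Mb; the first bin holds 31.6 and 62.9 regions per Mb, below each later bin of its list.

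Regions in the last 0.1 Mb inside the border were set beside those in the first 0.1 Mb outside it. In replicate 1 there were 86 and 83 such regions, with median widths of 427 and 426 bp, of which 83.7% and 88.0% overlapped replicate 2. In replicate 2 there were 181 and 195, with medians of 247 and 252 bp and overlaps of 43.1% and 41.0%. Compared only with the ring from 3 to 6 Mb, windows held 85.0% of its density in replicate 1 and 79.4% in replicate 2, a mean log2 ratio of −0.28. On that measure density was lower in the window on 9 of 12 chromosomes in both lists. It was higher in both lists on chromosomes 9 and 12, where windows held 42.2 and 38.3 regions per Mb in replicate 1 against 32.7 and 31.8 in the ring. In replicate 2 the windows of these chromosomes held 87.1 and 94.0 against 81.3 and 78.7. On chromosome 9 the ring lay on the right side only, since the window reaches the chromosome start. The right flank of that window alone held 38.3 regions per Mb in replicate 1, above the ring, and 80.3 in replicate 2, slightly below it. The ring itself, with 48.3 and 110.0 regions per Mb in the lists, was sparser than the rest of the chromosomes as a whole.

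Chromosomes differed in how far density dropped. On chromosome 4, whose short arm is known as largely heterochromatic, the window held 23.3 regions per Mb in replicate 1 and 56.0 in replicate 2, the lowest density of the 12 windows in both lists. The rest of chromosome 4 held 74.0 and 148 regions per Mb, so the window had 31.5% and 37.9% of that density. The ring beside this window was nearly as sparse, at 24.0 regions per Mb in replicate 1 and 57.8 in replicate 2. The low density was thus not particular to the window. Its left flank held 22.7 and 57.3 regions per Mb in the lists, and its right flank 24.0 and 54.7. Chromosome 5 followed, with 35.2 and 75.3 regions per Mb in the window against 89.5 and 178 in the rest, or 39.3% and 42.3%. On chromosome 7 the window had 42.7% and 44.2% of the density of the rest, and on chromosome 10, which also has a heterochromatic short arm, 48.9% and 52.0%. Whether the heterochromatic short arms bear on the deficits of chromosomes 4 and 10 was not tested.

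At the other end stood chromosome 12, with 38.3 and 94.0 regions per Mb in the window against 51.6 and 118 in the rest, or 74.2% and 79.7%. The window of chromosome 12 was not itself dense: its small deficit went with the sparsest rest of the 12 chromosomes. On chromosome 6 the window reached 69.5% and 70.6% of the rest. Chromosomes 8, 1, 9, 3, 11 and 2 lay between, from 52.85% to 63.6% over both lists. The densest windows were those of chromosome 2 in replicate 1, at 56.3 regions per Mb, and of chromosome 3 in replicate 2, at 112.5.

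The order of the chromosomes was similar in the lists. Of the 11 pairs of neighbours in the order of mean ratio, 8 were separated, in that the 2 values of one chromosome lay below both values of the next. Chromosomes 1 and 9, 9 and 3, and 11 and 2 were not separated. With 2 lists these separations are descriptions of the lists.

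**Figure D2:**
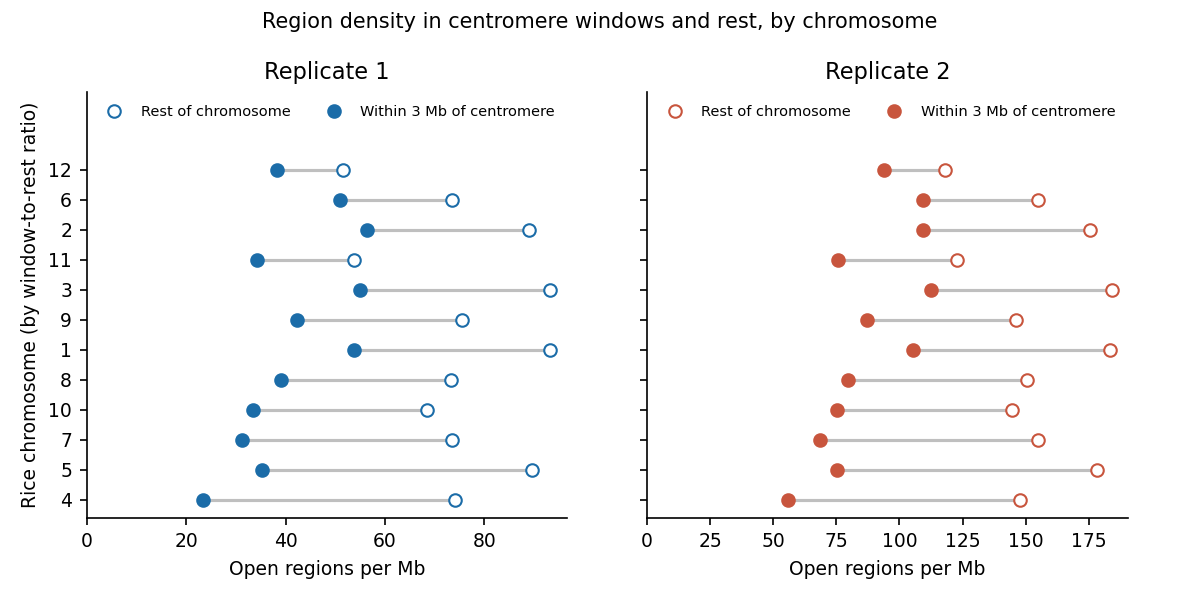
Open regions per Mb in the centromere window (filled) and in the rest of the same chromosome (open), for each rice chromosome and list, with chromosomes ordered by the mean window-to-rest ratio; the x axes of the replicates differ in scale. The filled point lies left of the open point on all 12 chromosomes in both lists, with the widest relative gap on chromosome 4 (31.5% and 37.9%) and the narrowest on chromosome 12 (74.2% and 79.7%).

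The arms on either side of a centromere were not always alike. On chromosome 5 the left flank held 22.0 regions per Mb in replicate 1 and 53.0 in replicate 2, while the right flank held 48.3 and 97.7, a right-to-left ratio of 2.20 and 1.84. Chromosome 7 leaned the same way, with 22.3 and 57.0 on the left and 40.3 and 79.7 on the right, a ratio of 1.81 and 1.40. Chromosome 8 leaned left, with 45.0 and 94.7 on the left and 33.0 and 64.3 on the right. Over the 12 chromosomes the left flank was denser in both lists on 5, the right flank on 4, and the lists differed in direction on chromosomes 4, 10 and 11. Only on chromosome 5 did the flanks differ by more than 1.5-fold in both lists. The window of chromosome 9 was cut by the chromosome start, which left 2.8 Mb on its left.

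The position of the emptiest stretch was set beside the centromere positions. It cannot check those positions, because windows of low density are already more likely to hold the emptiest stretch. Within each list, the 1-Mb stretch with the fewest regions had its centre inside the window on 7 of 12 chromosomes in replicate 1 and on 8 in replicate 2, with 7 chromosomes shared, although the windows make up 19.2% of the sequence. Where stretches tied, the one nearest to the centromere position was taken, a choice that favours the windows. Ties occurred on chromosomes 3 and 5 in replicate 1 and on chromosome 8 in replicate 2. On chromosomes 1, 2 and 3 it lay within 0.4 Mb of the centromere position in both lists. On chromosome 3, for example, it held 25 regions in replicate 1 and 50 in replicate 2, against medians of 86 and 174 over all 1-Mb stretches of that chromosome.

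On chromosomes 4, 6, 9 and 12 the centre of the emptiest stretch lay outside the window in both lists. On chromosome 4 it ran from 14.9 to 15.9 Mb and held 6 and 11 regions, 5.7 Mb from the centromere position. On chromosome 6 it held 16 and 36 regions, with its centre 3.4 and 3.3 Mb away, so that its edge reached into the window. On chromosome 8 the lists disagreed on whether its centre lay in the window. It held 13 regions 5.9 Mb away in replicate 1 and 27 regions 0.5 Mb away in replicate 2. The latter was the nearer of 2 tied stretches, so the disagreement may depend on how ties were settled. Chromosomes 7 and 9 agreed on the side of the window border but not on the stretch. On chromosome 7 it ran from 9.6 to 10.6 Mb in replicate 1 and from 11.6 to 12.6 Mb in replicate 2. On chromosome 9 it ran from 5.9 to 6.9 Mb and from 8.3 to 9.3 Mb. Windows were thus sparser than the whole rest of the chromosome on all 12 chromosomes, but they were not the emptiest part of each chromosome. They were not sparser than the adjacent ring on chromosomes 9 and 12. On chromosome 6 window and ring were close, at 51.0 and 50.8 regions per Mb in replicate 1 and 109.3 and 113.8 in replicate 2. Chromosome 4 was similar, at 23.3 and 24.0 in replicate 1 and 56.0 and 57.8 in replicate 2.

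**Figure D3:**
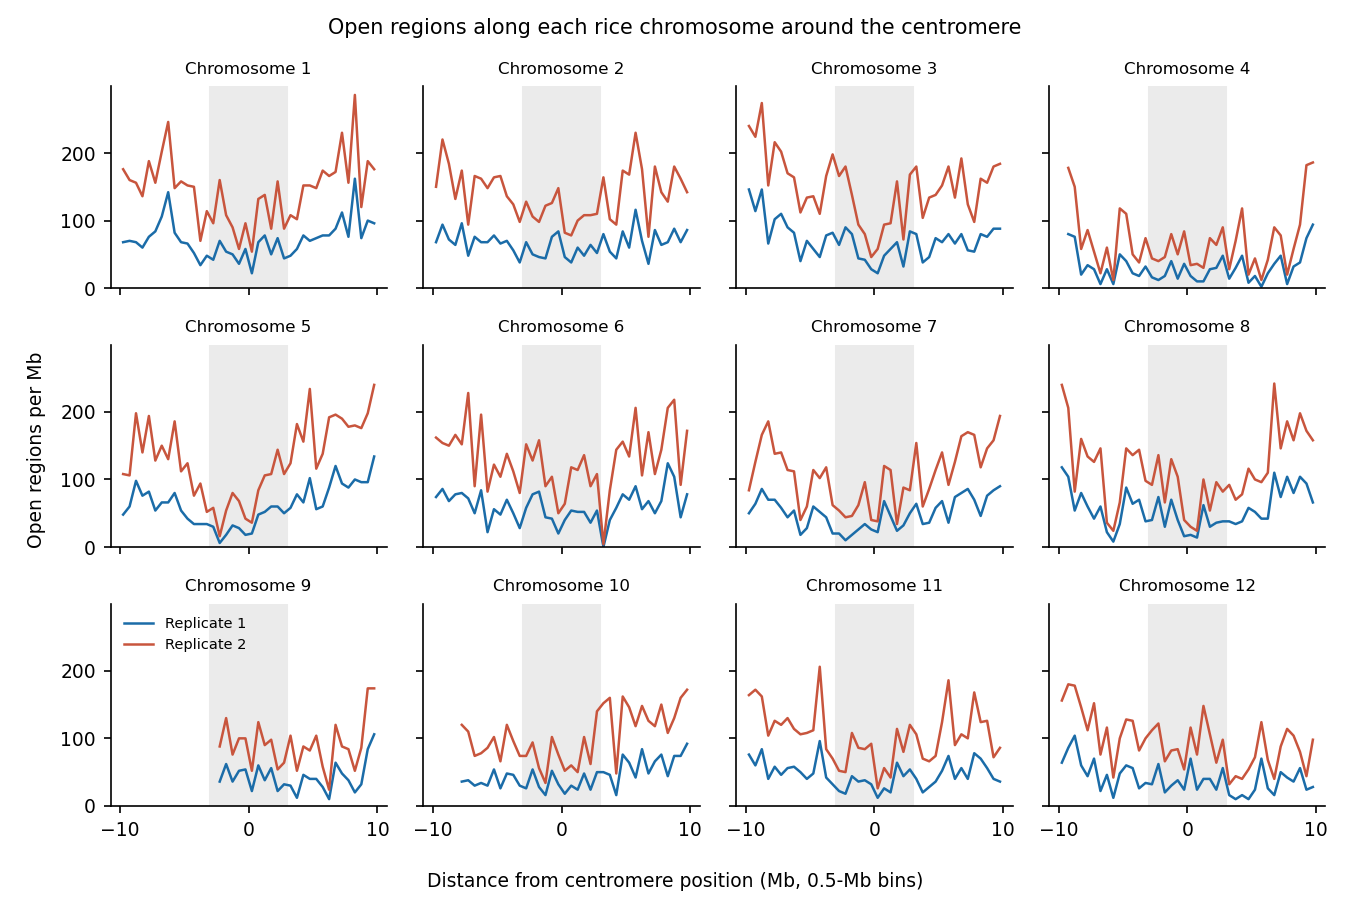
Open regions per Mb in bins of 0.5 Mb against signed distance from the centromere position for each rice chromosome, in replicate 1 (blue) and replicate 2 (red), with the windows in grey; bins cut by a chromosome end are not drawn. Both lists have low points near the centromere position on chromosomes 3 and 8, and further dips outside the grey zone on chromosomes 4, 6 and 8.

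The innermost 0.5 Mb was the sparsest of the bins 0 to 0.5, 0.5 to 1, 1 to 2 and 2 to 3 Mb on 8 chromosomes in replicate 1 and on 7 in replicate 2, all 7 among the 8. On chromosome 8 the inner bin held 17 and 35 regions per Mb, against 47 and 101.5 from 2 to 3 Mb. On chromosome 2 the direction was the opposite, with 65 and 115 regions per Mb in the inner bin against 58.5 and 113 from 2 to 3 Mb.

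Spacing showed the same sparseness without reference to width. The median distance between neighbouring regions was 10.01 kb in the windows and 4.89 kb in the rest in replicate 1, and 3.76 and 2.11 kb in replicate 2. Bins of 100 kb with no region made up 9.19% of 718 window bins in replicate 1 (66 bins, 95% Wilson interval 7.29 to 11.5) and 3.99% of 3008 bins in the rest (3.35 to 4.75). In replicate 2 the shares were 2.51% (18 bins, 1.59 to 3.93) and 1.06% (0.755 to 1.498). Empty bins were thus the exception, and the windows were thinly but broadly filled. Close neighbours under 1 kb apart made up 15.9% of the gaps in the windows and 20.8% in the rest in replicate 1, and 30.2% and 36.0% in replicate 2. The Wilson intervals here and below cover counting error only and treat neighbouring bins or regions as independent.

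Stretches free of regions in both lists were sought in every window. Coordinates are those of the lists, counted from 1, and IRGSP-1.0 is the rice build among those in the submitters' processing notes. The longest stretch in each window measured from 102 to 238 kb, with a median of 141 kb. The 3 longest ran on chromosome 8 from 13112792 to 13350921, on chromosome 11 from 12317397 to 12553798 and on chromosome 7 from 12119399 to 12325610. They began 213, 317 and 19.4 kb to the right of the given positions, the last within rounding. On chromosomes 4 and 10 the longest stretch of the window, of 166 and 147 kb, ran from 9695164 and from 8193995. Both starts lie so near the given positions that rounding decides whether the stretch holds the position. On 5 of the 12 chromosomes the longest region-free stretch of the whole chromosome was centred in the window. On chromosomes 4 and 6 it was centred outside the window and measured 365 and 352 kb, more than the longest stretch of any window. Which sequence lies in these stretches, and whether reads could be placed in it, was not analysed here.

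Regions found in both lists, as joined extents of overlapping regions, numbered 2490 in the windows and 19730 in the rest, or 34.7 and 65.5 per Mb. Per chromosome the windows held from 18.8 of them per Mb on chromosome 4 to 47.0 on chromosome 2. Their median width was 588 bp in the windows and 599 bp in the rest. The shared region nearest to the given position was 2.65 to 92.7 kb away, with a median of 13.5 kb. Distances of this order go with a density of 34.7 shared regions per Mb at any point chosen in the windows, and on 10 of 12 chromosomes the distance was within the 50 kb by which rounding can shift the position. These distances therefore locate the regions and say nothing of the centromere itself.

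The shortest of these distances was that on chromosome 1, to the region from 16702433 to 16702863, at 2.65 kb, with 390 bp in replicate 1 and 324 bp in replicate 2. On chromosome 2 the region from 13605029 to 13606594 lay 5.81 kb away. With 1566 bp in replicate 1 and 1268 bp in replicate 2 it was the widest of the 12 nearest regions. Those of chromosomes 10 and 12 followed, from 8193318 to 8193994 at 6.34 kb and from 11907107 to 11907709 at 7.41 kb. On chromosome 3 the nearest ran from 19390747 to 19391228, at 9.01 kb.

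On chromosome 4 the nearest region ran from 9686313 to 9687037, 13.3 kb away, and on chromosome 8 from 12913508 to 12913989, 13.7 kb away. On chromosome 6 it ran from 15315326 to 15315654, 15.5 kb away, and on chromosome 7 from 12119055 to 12119398, 19.2 kb away and directly beside the region-free stretch of 206 kb. On chromosomes 11, 5 and 9 the distances were larger, at 40.3 kb (11959524 to 11959884), 53.3 kb (12452914 to 12453708) and 92.7 kb (2706924 to 2707723). No gene or annotation was read at any of these positions.

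Members were about as wide as other regions of their list. The median width was 446 bp in the windows and 454 bp in the rest in replicate 1, and 268 and 279 bp in replicate 2. The mean log2 ratio was −0.042 ± 0.023 (SD, n = 2 lists; exact permutation p = 0.5, the smallest possible). Against the ring from 3 to 6 Mb the sign changed, to 0.013. By chromosome the median was lower in the window on 7 of 12 chromosomes in replicate 1 and on 11 in replicate 2, with 7 lower in both. The width difference ran from −48 bp on chromosome 5 to 30 bp on chromosome 9 in replicate 1, and from −33.5 bp on chromosome 4 to 10 bp on chromosome 3 in replicate 2.

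The share of regions at the commonest width of a list was close in both zones. It was 33.7% in the windows and 33.6% in the rest in replicate 1, and 19.1% and 17.7% in replicate 2. Regions of at least 1 kb made up 6.13% of members in replicate 1 (181 regions, Wilson interval 5.32 to 7.06) and 7.20% of the regions in the rest (6.88 to 7.54). In replicate 2 they made up 2.31% (145 regions, 1.97 to 2.71) and 2.37% (2.23 to 2.51). Per Mb there were 2.52 of these wide regions in the windows and 5.58 in the rest in replicate 1, and 2.02 and 3.74 in replicate 2.

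The widest members stood together on chromosome 9. The 3 widest regions found in both lists ran from 4723377 to 4732685 (9309 bp), from 4691123 to 4698406 (7284 bp) and from 4704938 to 4711610 (6673 bp), all within 41.6 kb and about 1.9 Mb from the centromere position. In replicate 1 they consisted of regions of 9009, 6972 and 6208 bp in total, and in replicate 2 of 9126, 7230 and 6480 bp. Regions covered 54.3% of these 41.6 kb in replicate 1 and 55.4% in replicate 2, against 2.50% and 3.28% of the whole window of chromosome 9. Without the cluster that window was covered to 2.13% and 2.91%. The next widest were on chromosome 12 from 13389870 to 13392956 (3087 bp) and on chromosome 4 from 9366826 to 9369867 (3042 bp). Of all members, 12 in replicate 1 and 6 in replicate 2 reached 2 kb, of which 4 and 3 lay on chromosome 9. Wider regions occurred outside the windows. The widest of the rest measured 33424 bp in replicate 1 and 40333 bp in replicate 2, against 6972 and 9126 bp in the windows.

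Replicate overlap by 1 bp or more was slightly lower in the windows than in the rest. A region counted as overlapping when it shared at least 1 bp with a region of the other list. In replicate 1, 2548 of 2951 members overlapped replicate 2, or 86.3% (Wilson interval 85.1 to 87.5), beside 87.3% of all regions of that list on the 12 chromosomes and 87.4% in the rest (87.0 to 87.8). In replicate 2, 2789 of 6271 members overlapped replicate 1, or 44.5% (43.2 to 45.7), beside 47.4% of all regions and 47.8% in the rest (47.3 to 48.2). The intervals of windows and rest overlapped in replicate 1 and did not in replicate 2. They treat regions as independent and are not a test over the 2 lists.

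The mean difference in overlap was −2.18 ± 1.57 percentage points (SD, n = 2 lists; exact permutation p = 0.5, the smallest possible). Both values count the same overlaps, once from each list, so they are not independent. The SD, the p and agreement of the lists in direction therefore measure no replication for overlap. It depended on the definition of overlap: with a reciprocal overlap of 50% the difference was 1.08 points in replicate 1 and −0.81 points in replicate 2, a mean of 0.135. Against the ring from 3 to 6 Mb it was −2.18 and 1.33 points. The lists differed in direction under both alternatives. By chromosome the share was lower in the window on 9 of 12 in replicate 1 and on 10 in replicate 2, with 8 lower in both lists. Chromosome 4 had the largest deficit in both, with 84.3% against 88.3% in replicate 1 and 38.1% against 49.4% in replicate 2. On chromosome 12 the share was higher in the window in both lists, at 90.4% against 88.2% and 43.6% against 42.3%.

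**Figure D4:**
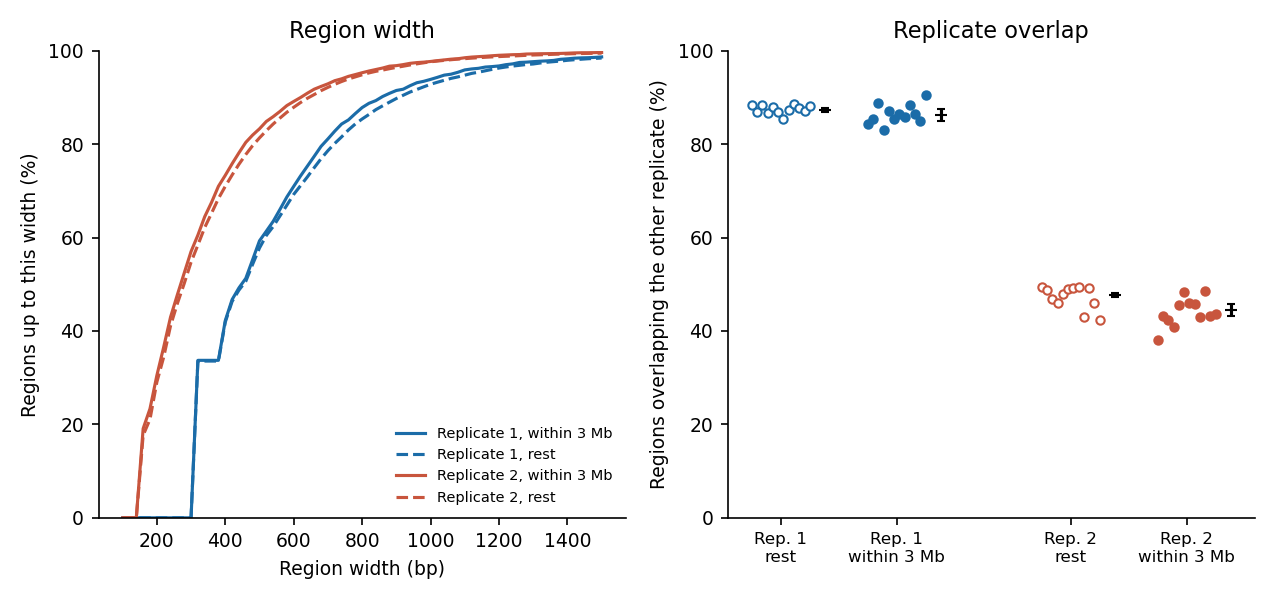
Left, cumulative share of regions (%) up to a given width (bp) in the windows (solid) and in the rest (dashed) of replicate 1 (blue) and replicate 2 (red). Right, share of regions (%) that overlap the other replicate, 1 point per chromosome, with black bars for the share over all 12 chromosomes and its 95% Wilson interval; windows and rest lie close within each list, at 86.3% and 87.4% in replicate 1 and at 44.5% and 47.8% in replicate 2.

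The overlap shares were close in both zones although the other list covered less of the windows, at 2.99% against 5.61% for replicate 2 and 2.19% against 4.24% for replicate 1. By base pairs, the sequence in both lists as a share of that in either was 41.3% in the windows and 43.4% in the rest.

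Members found in a single list were narrower than those found in both, as in the rest. In replicate 1 the 403 members with no partner had a median width of 305 bp and the overlapping members one of 486 bp, against 305 and 489 bp in the rest. In replicate 2 the 3482 members with no partner had a median of 215 bp and the others of 405 bp, against 216 and 417 bp in the rest.

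The excess of regions in replicate 2 was of similar size in both zones. Replicate 2 held 2.13 times as many members as replicate 1 in the windows and 2.04 times as many regions in the rest, and the ratio was higher in the window on 8 of 12 chromosomes. In the windows it ran from 1.94 on chromosome 2 to 2.45 on chromosome 12, and in the rest from 1.94 on chromosome 9 to 2.29 on chromosome 11. With regions of at least 300 bp the direction turned, from a log2 difference of 0.059 to −0.013.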

How the data were processed

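The deposited files used here were 2 rice region lists with 3 columns: sequence, start and end. Per the submitters' processing notes, Bowtie2, HOMER and the build IRGSP-1.0 were among the tools and builds of the series, and the list names give HOMER regions and a setting of 150. Versions, read filters, the handling of reads with several matches and read totals are not given in the sources used here. Per the labels' protocols, 50000 nuclei entered each transposase reaction.

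Regions were assigned by midpoint. Chromosome length was taken as the last region end in either list, so window length includes any sequence in which no read could be placed. The 2 lists were treated as replicates, each compared with itself, except that overlap draws on both lists. No p-value was computed over regions or chromosomes. Named regions were, by rule, the shared region nearest to each centromere position, the 5 widest shared regions and the 3 longest region-free stretches. The members and rules were chosen with earlier results of these data known. The search for the emptiest 1 Mb (steps of 0.1 Mb), the ring counts per chromosome and the chromosome 9 cluster were added after seeing the data. No rice genome or annotation was used here, so the planned annotation and sequence of members were not run. The 2 rice lists shared no identical region. Interval routines were tested on simulated lists of 37800 regions, where 14 of 14 planted numbers were recovered. Scripts ran under Python 3.11.15 with pandas 2.3.3 and NumPy 2.4.6, intervals came from SciPy 1.17.1, and Matplotlib 3.10.9 drew the figures.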

Additional observations from a re-analysis of the deposited data

Results flagged for a closer look

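No comparison used the rice sequences outside the 12 chromosomes. They held 25 regions in replicate 1, on 11 sequence names, and 52 in replicate 2, on 13 names, with no control list to set them against.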

How the results depend on the processing

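Of 56 alternative values for 6 results, 39 stayed within the spread between lists (for counts, within 1.5 times; for the ratio of the lists, within its counting interval), 14 moved further and 3 changed sign. The 39 include the values with 1 of the 2 lists left out. These cannot leave the SD between the lists by construction, so they say nothing of robustness. The log2 density ratio of −0.89 went to −1.01 with a radius of 1 Mb, −0.28 against the ring from 3 to 6 Mb, −0.83 without chromosomes 4, 9 and 10, −0.82 with regions under 500 bp apart joined, and between −0.92 without chromosome 6 and −0.84 without chromosome 4 when each chromosome was left out, a check chosen after seeing the data. The covered share went from −0.93 to −1.09 with a radius of 1 Mb, −0.27 against the ring and −0.88 without chromosomes 4, 9 and 10. The width ratio went from −0.042 to −0.069 with a radius of 1 Mb, −0.070 with joined regions and 0.013 against the ring. The overlap difference went from −2.18 points to −0.42 against the ring and 0.135 with reciprocal overlap of 50%, with the lists of opposite sign in both. Shared members numbered 721, 1592 and 4354 with radii of 1, 2 and 5 Mb, instead of 2490. The list ratio went from 0.059 to −0.013 with regions of at least 300 bp. The cause of these shifts was not tested, beyond the sequence each radius or ring takes in.

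Leaving out a replicate gave log2 density ratios from −0.91 to −0.86, covered shares from −0.95 to −0.91, width ratios from −0.058 to −0.026 and overlap differences from −3.29 to −1.07 points. Each list was its own pair, except that overlap draws on both lists. With no replicate block, from means over lists, the values were −0.87, −0.93, −0.038 and −2.18. Depth is unknown, and so is the amount of sequence in which no read could be placed. A stretch without a region is therefore not shown to be closed, and densities cannot be compared between lists.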
